A study of Mus musculus with 9 samples.

Results

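The sites described here were regions of mouse liver chromatin that carried a called XBP1 peak 6 h after a sham operation and in no other unsilenced liver of the series. They were found by merging the overlapping peaks of the 5 unsilenced lists and keeping the regions with a peak in the 6 h sham list and in none of the other 4. This gave 5533 of 28099 merged regions, or 19.7% (95% Clopper-Pearson interval 19.2 to 20.2%). Each region held 1 peak of the 6 h sham list, and together they made up 24.0% (23.4 to 24.5%) of its 23087 peaks. They are called the sham-only sites below. They were selected on the called peaks of the 5 lists, so their absence from the other 4 lists, their scores and their widths are given as a description.

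All livers came from wildtype mice of the strain C57Bl6-J, and XBP1 was mapped by chromatin immunoprecipitation with the antibody M-186 followed by sequencing (ChIP-seq), with 1 library per condition. The unsilenced lists came from liver 6 h after the sham operation, liver 48 h after the sham operation, liver 6 h and 48 h after partial hepatectomy, and basal liver. Surgery was done at 8 weeks of age. In the sham operation the abdomen was opened and the lobes were exposed, but no liver was removed. Further lists came from livers in which XBP1 had been silenced for 7 days by an adenovirus with a short hairpin RNA (shXBP1): 6 h after hepatectomy, 48 h after hepatectomy, and basal. Clodronate liposomes, which deplete macrophages, were given before the virus. Whether the livers without shXBP1 had been given the control virus (a hairpin against LacZ) or the liposomes is not in the labels, and neither is the number of animals behind a library. The series used here has no silenced sham liver. Whole liver was used, so fewer cells with an occupied site and less occupancy per cell cannot be told apart.

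XBP1 is a transcription factor that acts when unfolded proteins build up in the endoplasmic reticulum. The endoplasmic reticulum sensor IRE1 splices its messenger RNA, and the spliced form encodes an active factor that drives genes of protein folding, secretion and degradation of misfolded proteins. Hepatocytes secrete most plasma proteins and depend on this pathway, and in liver XBP1 also acts on lipid synthesis. A sham operation brings anaesthesia, fasting and an abdominal wound, and surgical injury is a known trigger of the hepatic acute-phase response. The sham liver is the study's control for removal of liver tissue.

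Hepatectomy at the same time point set the boundary of the group far more than the later or basal livers did. Of the 23087 peaks of the 6 h sham list, 5987 (25.9%, 25.4 to 26.5%) had no peak of the 6 h hepatectomy list in their region. Of these 5987, 92.4% (91.7 to 93.1%) had no peak in any remaining unsilenced list either and were the sham-only sites. A peak in the 48 h sham list was found for 104 of them (1.74%, 1.42 to 2.10%), and a peak in the 48 h hepatectomy list for 373 (6.23%, 5.63 to 6.87%). Basal liver had a peak at 30 of them (0.501%). The 48 h lists differ in length, with 4622 peaks after the sham operation and 7212 after hepatectomy, and basal liver had 2482. The 6 h hepatectomy list had 22071, so the part of list length and that of the liver cannot be told apart here. The sham-only sites would number 15270 if the 6 h hepatectomy list were not used, and 5603, 5860 and 5545 without the 48 h sham, the 48 h hepatectomy and the basal list.

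The sham-only sites were among the weaker peaks of their list. The score is the authors' own value per peak, taken as −log10 of the caller's p-value although no file header names the scale. In this paragraph it is compared within the 6 h sham list alone. Scores of the sham-only sites ran from 5.08 to 53.19, with a median of 10.94 and quartiles of 8.93 and 13.22. The other 17554 peaks of the list had a median of 19.43, and the 9548 sham peaks in regions of both 6 h lists alone had a median of 15.26. A score of at least 10 was reached by 3289 sham-only sites (59.4%), a score of at least 20 by 229 (4.14%), a score of at least 30 by 26, and a score of at least 50 by 1. There were 1714 peaks that scored at least as high as the strongest sham-only site, that site included, and 1711 of them had a 6 h hepatectomy peak in their region.

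**Figure D1:**
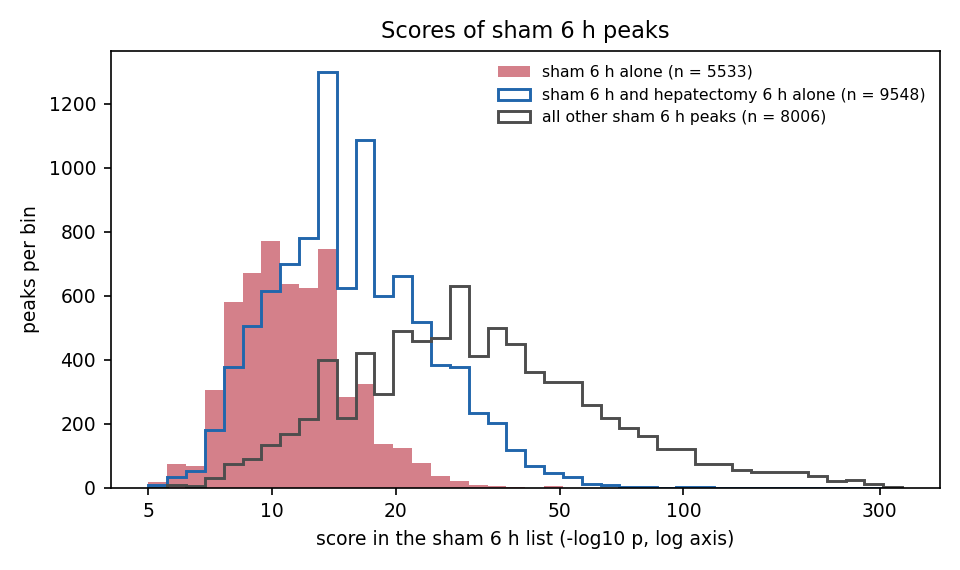
Histogram of the score (−log10 p, log axis) of the peaks of the 6 h sham list, in peaks per bin, for the sham-only sites (filled), peaks of both 6 h lists alone (blue line) and all other peaks of the list (grey line). The sham-only sites lie at the low end, with a median of 10.94 and a highest score of 53.19, and overlap widely with the peaks of both 6 h lists, whose median is 15.26.

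Their share of the list was lower in each higher decile of score. In the lowest decile, with scores from 5.08 to 8.93, 1480 of 2640 peaks were sham-only (56.1%, 54.1 to 58.0%). In the fifth, from 14.17 to 16.32, 422 of 1688 peaks were sham-only (25%, 22.9 to 27.1%), and in the eighth, from 23.65 to 30.32, it was 3.40% (2.67 to 4.26%). In the highest decile, from a score of 45.35 upwards, 6 of 2304 peaks were sham-only (0.260%, 0.0956 to 0.566%). Deciles differ in size because peaks with the same score were kept together.

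**Figure D2:**
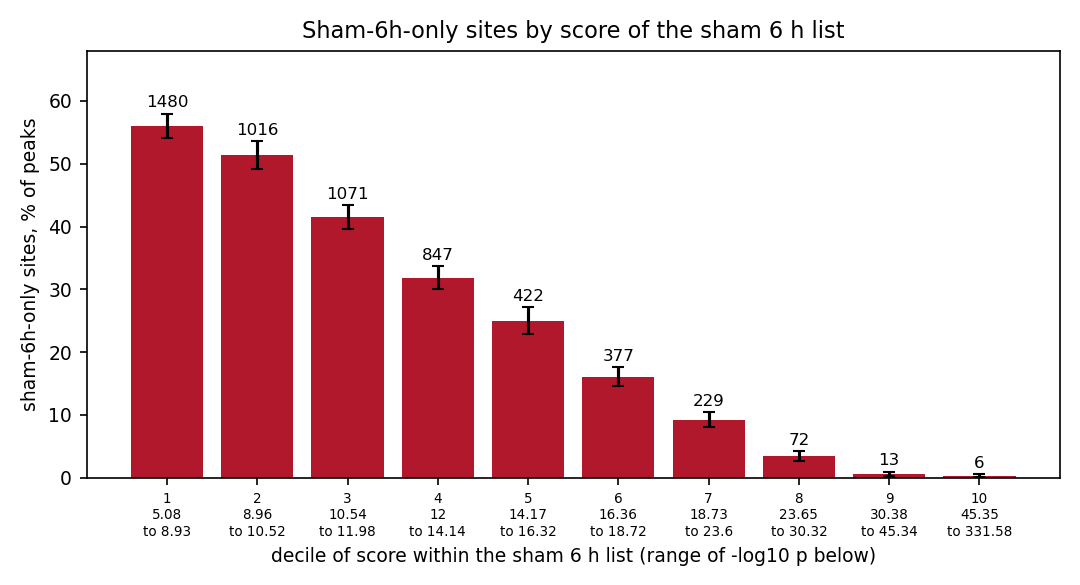
Sham-only sites as a percentage of the peaks in each decile of score of the 6 h sham list (lowest at left, score ranges under the axis). Bars are shares, lines are 95% Clopper-Pearson intervals and numbers are counts of sham-only sites. The share is 56.1% in the lowest and 0.260% in the highest decile.

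The sham-only sites were also narrow. Their median width was 309 bp (quartiles 268 and 375 bp), against 457 bp for the other peaks of the list, and they covered 1.86 Mb against 9.02 Mb. The shortest peak of both groups had 249 bp, and the widest sham-only site had 1266 bp. Within deciles of score the comparison was with the peaks of both 6 h lists alone, whose median width over all scores was 398 bp. Sham-only sites had a median of 277 bp in the lowest decile, against 292 bp for peaks of both 6 h lists alone, and 351 bp against 398.5 bp in the fifth. In all 10 deciles the median was lower for the sham-only sites. Scores were not matched within a decile: in the highest, the sham-only sites ended at 53.19 and the peaks of both 6 h lists alone at 138. Width bears on the rule itself, since a narrow peak has less length with which to meet another one, so no test was made.

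The 10 sham-only sites with the highest scores had a score of 36.72 or more and were between 376 and 493 bp wide. The first lay on chr1:38921253-38921675 (mm9) with a score of 53.19, rank 1712 of the list, and no peak of the other 4 unsilenced lists was nearer than 122360 bp. The next 3 shared a score of 49.74. They lay on chr7:121056586-121057057, chr8:13364709-13365200 and chr11:60629857-60630349, with the nearest peak of the other 4 lists 47300 bp, 76387 bp and 4784 bp away. A site on chr6:48756769-48757179 scored 49.7, with the nearest such peak 17971 bp away. The site on chr17:48737612-48738054 scored 47.38 and lay 187902 bp from the nearest such peak. These 6 were all the sham-only sites of the highest decile.

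After them the scores dropped below 40. The seventh site lay on chr7:20422153-20422528 (score 39.96), 3148 bp from a 6 h hepatectomy peak. The eighth lay on chr1:195941869-195942260 (score 38.65), the ninth on chr7:132199541-132199974 (score 36.82) and the tenth on chr1:38232939-38233362 (score 36.72). Their nearest peaks of the other 4 lists were 209473 bp, 180526 bp and 64993 bp away. In all, 8 of the 10 strongest sites stood over 10 kb from every peak of the other 4 unsilenced lists, and 7 of the 10 over 10 kb from any other peak of the 6 h sham list as well. Peaks are named by position, because the gene table used here is on another genome build and no position was converted.

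Most sham-only sites were not near misses of the overlap rule. A peak of any of the other 4 unsilenced lists lay within 100 bp of 102 sites (1.84%, 1.51 to 2.23%), within 500 bp of 533 (9.63%, 8.87 to 10.4%) and within 1000 bp of 896 (16.2%, 15.2 to 17.2%). The gap is the number of bases between the edges of both peaks. The nearest peak of the 4 lists was that of the 6 h hepatectomy list for 91.1% of the sites. Just inside the rule, a site on chr15:58704121-58704369 (score 6.17) touched a 6 h hepatectomy peak, with a gap of 0 bp. Sites on chr6:6165285-6165590 (score 9.82) and chr2:122067811-122068069 (score 9.92) lay 1 bp and 2 bp from a 48 h hepatectomy peak. Those on chr7:121466035-121466437 (score 15.36) and chr4:62912984-62913398 (score 7.97) lay 3 bp and 5 bp from a 6 h hepatectomy peak.

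Just outside it, a sham peak on chr7:80704572-80704898 (score 10.94) shared 3 bp with a 6 h hepatectomy peak, and one on chr13:14047331-14047608 (score 9.92) shared 6 bp. Peaks on chr7:56133330-56133607 (score 8.93) and chr12:100494870-100495497 (score 9.92) shared 8 bp with a 6 h hepatectomy peak, and one on chr19:18643093-18643518 (score 10.94) shared 8 bp with a 48 h hepatectomy peak. Such thin contacts were few: 86 of the 17554 other sham peaks shared at most 100 bp with the lists that kept them out.

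At the scale of kilobases, the distance to other lists went with the length of those lists. The median gap to the nearest 6 h hepatectomy peak was 8781 bp, and 2895 sites (52.3%, 51.0 to 53.6%) had one within 10 kb. For the 48 h lists the median gap was 67335 bp after the sham operation, with 17.1% of sites within 10 kb, and 36071 bp after hepatectomy, with 25.4%. For basal liver it was 153396 bp, with 9.13%. The lists run from 22071 peaks 6 h after hepatectomy to 2482 in basal liver, so the gaps do not show which liver the sites resembled. Over all peaks of the 6 h sham list, most of which overlap a 6 h hepatectomy peak, 87.6% had one at or within 10 kb. Of the 5533 sites, 4534 (81.9%, 80.9 to 82.9%) lay in a 100 kb window with a 6 h hepatectomy peak and 3346 (60.5%, 59.2 to 61.8%) in one with a 48 h or basal peak. Over all peaks of the 6 h sham list these shares were 95.3% and 74.7%, counting the peaks that overlap one of another list. The rule bars such overlap at the sham-only sites, so nothing is read from the differences.

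**Figure D3:**
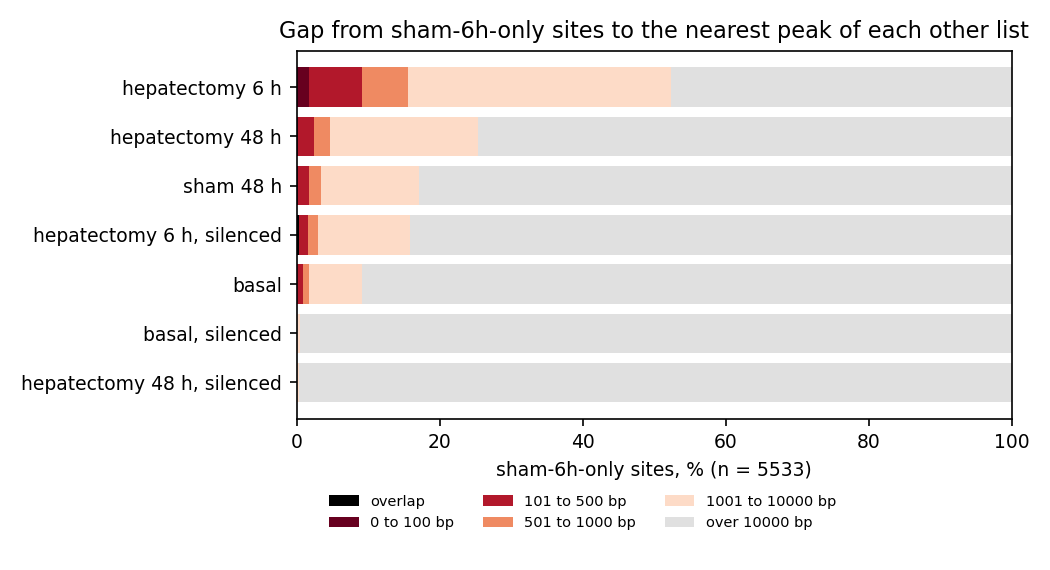
Share of the 5533 sham-only sites (in %) by the gap to the nearest peak of each other list, with overlap in black and gaps over 10000 bp in pale grey. The 6 h hepatectomy list has a peak within 10 kb of 52.3% of the sites, and overlap appears only for the silenced 6 h list, where 0.343% of the sites have one.

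A minority of the sites stood close beside a 6 h hepatectomy peak. Within 500 bp there was such a peak for 502 sham-only sites (9.07%, 8.33 to 9.86%). With shared peaks defined by midpoints within 250 bp, or by 50% of both lengths, 16.8% and 26.3% of the sites had one at or within that distance. Over the whole 6 h sham list 76.4% of peaks had one at or within that distance, but nearly all of those by the overlap that the rule bars, so nothing is read from the difference. For 396 of the 502 sites (78.9%) the neighbouring peak lay in a region that also carried a 6 h sham peak, a share near the 77.0% of the whole 6 h hepatectomy list. For 100 sites it was a peak of the 6 h hepatectomy list alone, and for 6 it was shared with a 48 h or basal list. The 502 sham-only sites had a median score of 10.0 and a median width of 304.5 bp, and the 2638 sham-only sites over 10 kb from any 6 h hepatectomy peak had 10.94 and 309 bp.

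The silenced livers were not used in choosing the sites, and nearly none of the sham-only sites had a peak there. In the silenced list 6 h after hepatectomy, 19 of the 5533 sites had an overlapping peak (0.343%, 0.207 to 0.536%), against 17.6% of all peaks of the 6 h sham list. Of the sham peaks in regions of both 6 h lists alone, 7.18% had one. For the sham-only sites the share was 0.628% with shared peaks defined by midpoints within 250 bp and 0.734% by 50% of both lengths. No sham-only site had one in the silenced basal list, where 0.528% of all peaks of the 6 h sham list did. The same held for the silenced 48 h list, where 0.312% did. These silenced lists are short, with 177 and 102 peaks. The 4835 regions with a peak 6 h after hepatectomy alone also had 0 in either. The 9548 sham peaks of both 6 h lists alone had 0 and 2, so the absence was not particular to the sham-only sites. A count of 0 among 5533 allows a share of up to 0.0542%, and like the intervals this covers counting error only. Of the 4325 peaks of the silenced 6 h list, 4248 lay on a peak of the unsilenced 6 h hepatectomy list, which by the rule has none at the sham-only sites. A low share therefore follows in large part from the rule. Of the 77 silenced peaks that lay on no unsilenced 6 h hepatectomy peak, 27 lay on a peak of the 6 h sham list and 18 of these on a sham-only site. The sham-only sites were 24.0% of all 6 h sham peaks and 92.4% of those with no 6 h hepatectomy peak in their region. Nothing is therefore read from this count.

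The share was low over most of the range of scores. It was 0.270% (4 of 1480 sites, 0.0737 to 0.691%) in the lowest decile and 0.796% (3 of 377 sites, 0.164 to 2.31%) in the sixth, and 1 of the 6 sites of the highest decile had a silenced peak. Among sham peaks of both 6 h lists alone this share was 1.43% (14 of 981) in the lowest decile. In the sixth it was 6.53% (90 of 1379) and in the highest 45.1% (51 of 113). Each of these peaks has a 6 h hepatectomy peak in its region, so nothing is read from the difference. A nearer comparison is with the sham peaks that also lacked a 6 h hepatectomy peak but had a 48 h or basal one. The rule bears on it too: these peaks were chosen for a peak in a further list, and the sham-only sites for having none. The share was 0.343% for the sham-only sites and 1.98% (9 of 454, 0.910 to 3.73%) for these peaks. Median scores were 10.94 for the sham-only sites and 14.14 for these peaks, and median widths were 309 bp and 362 bp. The part of score and width in this was not tested, and with 1 library per condition the difference could not be set against the spread between livers.

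The 19 sites with a silenced peak were spread over 12 chromosomes, with scores from 6.68 to 49.74 and a median of 14.14. The strongest was the second site of the whole group, on chr7:121056586-121057057. The silenced peak on it ran from 121056719 to 121056965 with a score of 10.99 in its own list, at rank 3107 of 4325. The next were on chr7:141689014-141689355 (score 28.73), chr19:44933105-44933403 (score 24.86), chr2:87360866-87361303 (score 23.6) and chr1:58643122-58643457 (score 18.5). Their silenced peaks scored 8.97, 12.24, 13.11 and 7.53. The 19 silenced peaks scored from 5.47 to 20.0 with a median of 10.99, in a list whose median was 14.22 and whose highest score was 377.07.

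Along the chromosomes the sham-only sites were dispersed much like the rest of their list. Another peak of the 6 h sham list lay within 10 kb of 3203 sites (57.9%, 56.6 to 59.2%), against 59.1% over all peaks of the list, and within 1 kb of 18.8%, against 21.3%. Another sham-only site lay within 10 kb of 1389 sites (25.1%, 24.0 to 26.3%), and of 14.7% where a score of at least 10 was required in the 6 h sham list. Of the 4835 regions with a peak 6 h after hepatectomy alone, 22.2% (21.1 to 23.4%) had another of their kind within 10 kb. That set is smaller than the sham-only sites, which bears on such a share, so nothing is read from the difference. The sham-only sites fell into 3837 windows of 100 kb, of which 2673 held 1 site and 809 held 2. There were 10 windows with 6 or more.

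The window with the most sham-only sites lay on chr19:46700001-46800000 and held 8. It had 15 peaks 6 h after the sham operation in all, 8 peaks 6 h after hepatectomy, 1 peak 48 h after the sham operation, 2 peaks 48 h after hepatectomy and none in basal liver. Windows on chr9:46000001-46100000 and chr10:88900001-89000000 held 7 each, as did one on chr17:85400001-85500000. The chromosome 9 window was rich in peaks in general, with 22 at 6 h after the sham operation, 17 at 6 h after hepatectomy and 3 in the silenced 6 h list. The window on chromosome 10 had 12 peaks 6 h after the sham operation and 4 peaks 6 h after hepatectomy. In these 4 windows the scores of the sham-only sites lay between 6.17 and 22.36.

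The share of sham-only sites was similar on most chromosomes. It lay between 18.9% of the 6 h sham peaks on the X chromosome and 28.1% on chromosome 14. Chromosome 14 (243 of 864 peaks, 25.1 to 31.3%) and chromosome 7 (284 of 1385 peaks, 20.5%, 18.4 to 22.7%) were those whose interval did not include the 24.0% of the whole list. The intervals were not adjusted for the number of chromosomes looked at, so neither is read as a departure. On the X chromosome 41 of 217 peaks were sham-only (13.9 to 24.7%), and the Y chromosome had 2 sham peaks, neither of them sham-only.

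**Figure D4:**
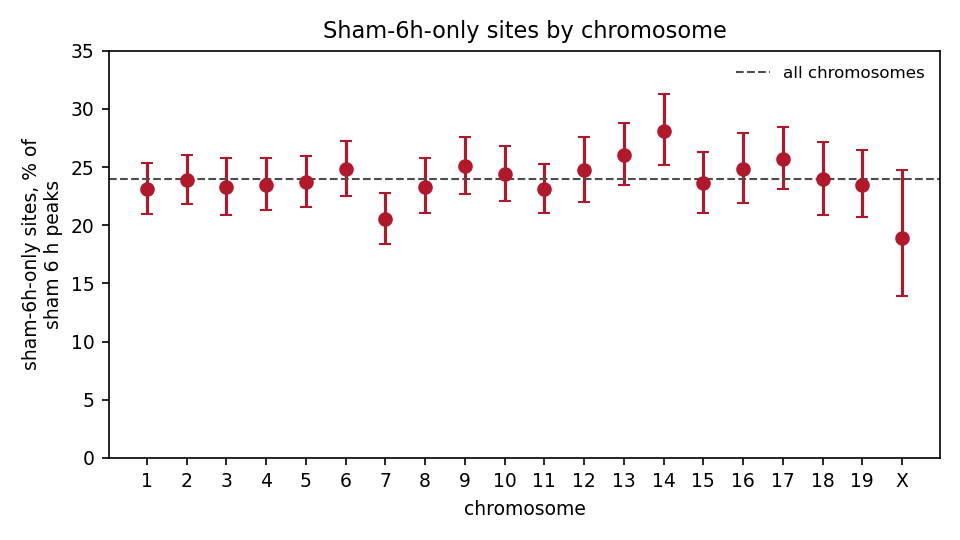
Sham-only sites as a percentage of the 6 h sham peaks of each chromosome (points, with 95% Clopper-Pearson intervals), beside the 24.0% of all chromosomes (dashed line). The intervals are not adjusted for the number of chromosomes. Chromosome 14 lies above the line at 28.1% and chromosome 7 below it at 20.5%; the Y chromosome, with 2 peaks, is left out.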

How the data were processed

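The data were 8 peak lists deposited by the authors, 1 per immunoprecipitated library, from 9 samples; the input DNA was not analysed here. Bowtie2, MACS 1.4.2 and the genome build mm9 are named in the submitters' processing notes. The sources used here give neither the settings nor the read depth, nor the role of the input in calling. From its range, with the lowest values near the caller's usual threshold, the score deposited by the authors was read as −log10 p, a p-value per peak. The lowest score was 5.08 in the 6 h sham list but smaller in the silenced 48 h list, at 4.33. Scores were ranked within a list alone. The same cutoff was set in different lists for a score of at least 10 in every list and of at least 20 in both 6 h lists. No header names the scale: MACS 1.4 usually writes a value 10 times as large, and read that way the lowest sham score, 5.08, would be a p of 0.310. Positions are 1-based.

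Groups came from the sample titles. Peaks of the 5 unsilenced lists were merged where they overlapped by at least 1 bp. Shares carry 95% Clopper-Pearson intervals, and a count of 0 allows 3 counts of the total; both cover counting error only. With 1 library per condition no test between conditions was possible and no p-value was computed. Sites were named by fixed rules: the 10 highest-scoring, the 5 highest-scoring with a silenced peak, the 5 highest-scoring over 10 kb from a 6 h hepatectomy peak (all among the first 10), those nearest the limit of the rule, and the 3 windows of 100 kb with most sites (another, tied with them, was added). The sites and rules were chosen with earlier results of these data known. The gene table at hand is on GRCm38, and 604 peaks lay beyond its last gene of their chromosome, so planned steps with genes, cell type markers and motifs were not run. Python 3.11.15, NumPy 2.4.6, pandas 2.3.3, SciPy 1.17.1 and matplotlib 3.10.9 were used. On simulated data, merging was tested against the known sites, and overlaps and gaps against bedtools 2.31.1.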

Additional observations from a re-analysis of the deposited data

How the results depend on the processing

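Read depth was not given, so an absent peak cannot be told apart from one below the caller's threshold. The number of sham-only sites stayed between 4319 and 6945 in 9 of 12 alternatives, against 5533. It was 3289 with a score of at least 10 in the 6 h sham list, 229 with at least 20 there (chosen after seeing the data) and 15270 without the 6 h hepatectomy list. Under these 3 the share with a silenced 6 h peak was 0.456%, 1.75% and 4.68%, that with a 6 h hepatectomy peak at or within 500 bp was 7.63%, 3.93% and 67.1%, and that with another sham-only site within 10 kb was 14.7%, 0.873% and 48.6%. With shared sites defined by midpoints within 250 bp these shares were 0.628%, 16.8% and 27.3%, and where both peaks had to share 50% of their length 0.734%, 26.3% and 31.0%. With the other 4 lists widened by 500 bp the last 2 were 0.02%, by construction, and 22.6%; with a score of at least 10 in every list they were 6.69% and 19.5%. With as many of the highest-scoring sham peaks as there were 6 h hepatectomy peaks, 22.3% had another sham-only site within 10 kb. The cause of the other shifts was not tested. The median score was 10.9 in all 3 alternatives tried. Leaving out the basal or a 48 h list, or peaks over 2 kb and chromosome Y, moved no share beyond its interval. Alternatives with transcription starts and motifs were not run. No paired analysis was possible because each condition has 1 library.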

Other observations

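The regions with a peak 6 h after hepatectomy alone were the counterpart of the sham-only sites. They were much alike in layout, but not in their share with a silenced 6 h peak. They numbered 4835, or 21.9% of the 6 h hepatectomy list, where the sham-only sites made up 24.0% of theirs. A 6 h peak of the other operation lay within 500 bp of 9.07% of the sham-only sites and 11.4% of the hepatectomy-only sites (10.5 to 12.3%), and within 10 kb of 52.3% and 53.5%. Median widths were 309 bp and 324 bp. A silenced 6 h peak lay on 124 of the 4835 hepatectomy-only sites (2.56%, 2.14 to 3.05%), against 0.343% of the sham-only sites. Of the 4325 silenced 6 h peaks, 4248 lay on a 6 h hepatectomy peak, which the rule bars from the sham-only sites alone. The direction of this difference therefore follows in large part from the rule. Scores of both lists need not share a scale. Of the 8468 peaks of the 6 h sham list with a score of at least 20, 229 were sham-only (2.70%, 2.37 to 3.07%). Of the 10379 such peaks of the 6 h hepatectomy list, 614 were hepatectomy-only (5.92%, 5.47 to 6.39%). This cutoff kept 8468 of 23087 peaks in the sham list but 10379 of 22071 in the hepatectomy list, so nothing is read from the difference.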
